A study of Acipenser baerii with 14 samples.

Results

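ATOH1 and POU4F3 are transcription factors of sensory hair cells, and their transcripts were followed here in the lateral line of Siberian sturgeon (*Acipenser baerii*) larvae. The members are all assembled genes (contigs) whose gene name in the merged Swiss-Prot annotation is ATOH1 or POU4F3, which gave 4 of the 23448 genes in the count table. ATOH1 was the name of 3 of them, TRINITY_DN99639_c0_g1, TRINITY_DN87586_c2_g1 and TRINITY_DN80911_c0_g1, and POU4F3 the name of 1, TRINITY_DN100538_c0_g1. The names come from the best protein match in other species, and the assembly places no contig on a chromosome. Summed over all libraries, the expected counts were 1699 for ATOH1 DN99639_c0_g1, 748 for POU4F3, and 102 and 71.3 for DN87586_c2_g1 and DN80911_c0_g1.

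The study compared 2 kinds of lateral line organ, the electrosensory ampullary organs (AO) and the mechanosensory neuromasts (NM), with general epithelium (EP), in larvae at 10 days post hatching. AO and NM were taken from the ventral head of untreated larvae and of larvae at 12 h and 24 h post treatment (hpt), where the treatment was 200 µM neomycin for 1 h, an aminoglycoside antibiotic that kills hair cells. EP came from the ventral trunk of untreated larvae, so organ and body region cannot be told apart in comparisons with EP, and EP after neomycin was not sampled. Each of the 7 groups had 2 libraries made from parts of 1 pool of tissue from many larvae, so every SD, interval and p-value covers the spread between parts of a pool and not that between larvae. The dissected tissue was a mixture of cell types, and markers of neurons, lens, muscle and liver differed between groups, as given below. In such bulk tissue, fewer cells of a type, less RNA per cell and a larger share of other tissue cannot be told apart.

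ATOH1 is a proneural basic helix-loop-helix (bHLH) factor without which hair cells do not form in the mouse ear, and its zebrafish counterparts are needed for neuromast hair cells. It binds DNA as a dimer with E proteins, is held down by ID proteins and by the HES and HEY repressors that Notch signaling induces, and is expressed most strongly while hair cells are being made. POU4F3 is a POU homeodomain factor that follows ATOH1 in the mouse and keeps maturing hair cells alive, with the zinc finger gene GFI1 and the LIM homeobox gene LHX3 among the genes that depend on it. In mouse skin, both factors also act in Merkel cells, touch receptors of the epidermis.

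Libraries held 7121038 to 10067958 expected counts. Levels are given as CPM, the expected counts brought to a common library size with TMM factors of 0.833 to 1.19. The summed level of 88 contigs of hair cell genes was 707 to 739 CPM in EP, 2601 in both untreated AO libraries and 2502 to 2565 in untreated NM. At 12 hpt it was 1668 to 1726 CPM in AO and 1712 to 1738 in NM. At 24 hpt it was 1254 to 1287 CPM in AO and 2016 to 2054 in NM. A large part of the organ sums came from 1 contig, CPV3 (parvalbumin-3), so they do not describe the list as a whole. CPV3 had 16336 and 15809 expected counts in the untreated AO libraries and 4133 and 4834 in AO at 24 hpt. In NM it had 12467 and 16432 untreated and 8423 and 10321 at 24 hpt. Markers of other tissues moved between groups too. Summed neuron markers (24 contigs) reached 2039 to 2069 CPM in NM and 1592 to 1636 in AO at 24 hpt, against 475 to 518 in AO and 260 to 282 in NM before treatment and 253 to 277 in EP. Lens markers (18 contigs) reached 3354 to 3651 CPM in NM at 24 hpt against 12.8 to 275 in the other groups. Muscle markers (47 contigs) were at 37837 to 38276 CPM in EP, and at 241 to 560 in NM at 24 hpt and in both untreated organs. They were at 6235 to 6281 CPM in AO and 11836 to 11913 in NM at 12 hpt, and at 14837 to 15055 in AO at 24 hpt. Liver markers (20 contigs) were at 686 to 737 CPM in untreated NM, 475 to 558 in NM at 12 hpt, 154 to 166 in AO at 12 hpt and 25.8 to 37.4 in the other groups. Their part in the results on ATOH1 and POU4F3 was not tested.

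ATOH1 and POU4F3 were both far above EP in the untreated organs. ATOH1 DN99639_c0_g1 had 2.80 and 1.63 CPM in the EP libraries, 23.9 and 21.9 in untreated AO and 29.1 and 28.4 in untreated NM. POU4F3 had 0.984 and 1.31 CPM in EP, 10.8 and 9.97 in untreated AO and 9.36 and 8.21 in untreated NM. For both genes each organ library lay well above both EP libraries. ATOH1 was 10.4-fold higher in AO than in EP (log2 fold change 3.39, SE 0.24, adjusted p = 2.87e-06, quasi-likelihood test of edgeR, Benjamini-Hochberg adjusted) and 13.1-fold higher in NM (log2 fold change 3.72, SE 0.24, adjusted p = 1.33e-06). POU4F3 was 8.94-fold higher in AO (3.16 on the log2 scale, SE 0.20, adjusted p = 1.16e-06) and 7.53-fold higher in NM (2.91, SE 0.21, adjusted p = 2.47e-06). Calls required an adjusted p (FDR) under 0.01 together with a log2 fold change beyond 1 in either direction. Of the 4 members 2 were called higher than EP in each organ and 0 lower. Of the 21978 tested genes 7.46% were called higher and 6.81% lower in AO than in EP, and 4.06% higher and 9.19% lower in NM. Both organs were compared with the same 2 EP libraries.

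**Figure D1:**
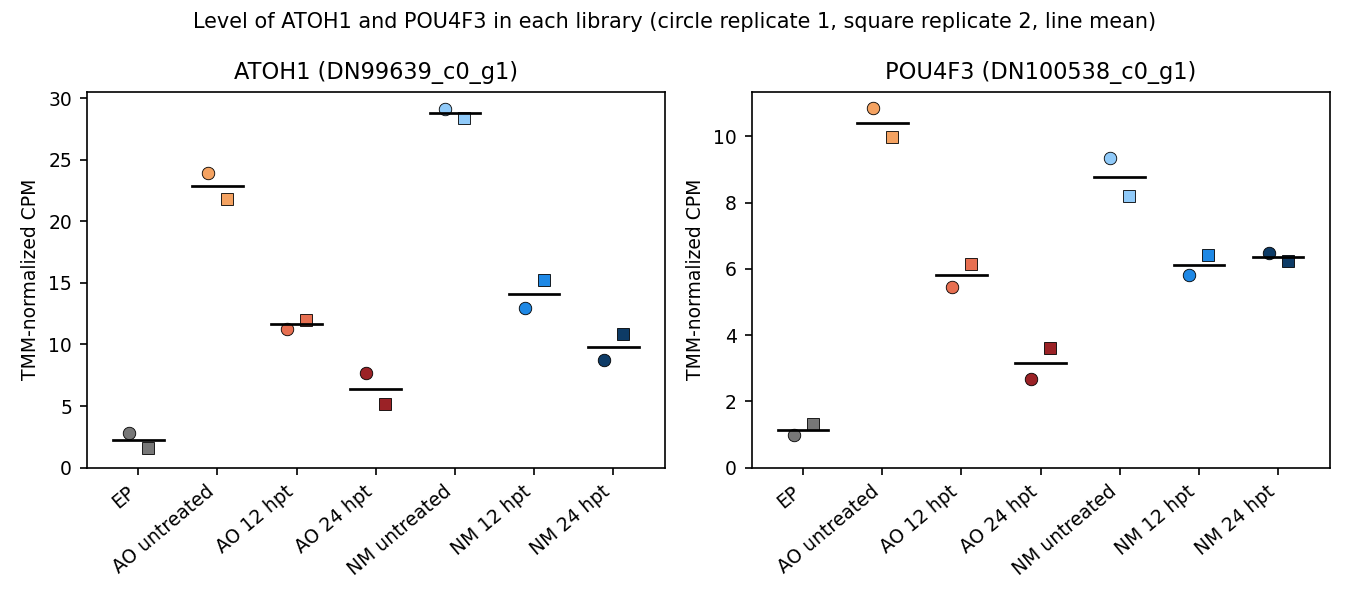
Level of ATOH1 DN99639_c0_g1 (left) and POU4F3 (right) in each of the 14 libraries, as TMM-normalized CPM on a linear axis that starts at 0. Circles are replicate 1, squares replicate 2 and lines the mean of both. ATOH1 was highest in the untreated organs (21.9 to 29.1 CPM) and lower at each later time in both, while POU4F3 in NM stayed between 5.82 and 6.46 CPM at 12 and 24 hpt.

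The transcripts were not absent from EP. The EP libraries held 19.8 and 12.5 expected counts of ATOH1 DN99639_c0_g1 and 6.95 and 10.1 of POU4F3. Of 23 tested contigs of Merkel cell markers, 3 were called higher and 2 lower in untreated AO than in EP, and 2 higher and 2 lower in untreated NM. The shares over all tested genes were 7.46% higher and 6.81% lower in AO, and 4.06% and 9.19% in NM. The Merkel cell contigs called were of CHGA, ISL1 and KRT18, and none was of PIEZO2, a touch channel. The summed level of 26 Merkel cell contigs, which include keratins of simple epithelia, was 18718 to 19215 CPM in EP, 15291 to 16282 in untreated AO and 19683 to 20527 in untreated NM. The part of Merkel cells in the EP level of both factors was not tested.

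AO and NM differed little in either factor before treatment. The AO to NM log2 fold change of ATOH1 was -0.33 (95% interval -0.71 to 0.05, adjusted p = 0.178) and that of POU4F3 0.25 (-0.07 to 0.57, adjusted p = 0.232). At 12 hpt it was -0.28 (-0.71 to 0.15, adjusted p = 0.457) for ATOH1 and -0.07 (-0.43 to 0.29, adjusted p = 0.895) for POU4F3. At 24 hpt ATOH1 had -0.63 (-1.10 to -0.16, adjusted p = 0.0941). POU4F3 had 2.69 and 3.62 CPM in AO and 6.46 and 6.23 in NM at 24 hpt. Its log2 fold change there was -0.99 (SE 0.17, adjusted p = 0.00368), just under the fold threshold. With edgeR's relative log expression (RLE) scaling in place of TMM it was -1.03 and called. None of the 4 members was called between AO and NM at any of the 3 times in the edgeR fit with TMM or by DESeq2's Wald test, and the number with an unadjusted p under 0.05 was 0 untreated, 0 at 12 hpt and 2 at 24 hpt. The background was 5.20% of tested genes called higher in AO and 0.828% lower for untreated organs, 2.95% and 0.764% at 12 hpt, and 3.11% and 0.378% at 24 hpt.

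After neomycin the ATOH1 level was lower in both organs at 12 hpt and lower again at 24 hpt. In AO, ATOH1 DN99639_c0_g1 went from 23.9 and 21.9 CPM untreated to 11.3 and 12.0 at 12 hpt and 7.65 and 5.16 at 24 hpt. In NM it went from 29.1 and 28.4 CPM to 12.9 and 15.2 and then to 8.75 and 10.9. Within each organ the 3 times did not overlap. In NM it fell by 1.03 on the log2 scale at 12 hpt (SE 0.18, adjusted p = 0.00171), and 1.32% of tested genes were called lower there, with 2.21% in AO. The AO value at 12 hpt was -0.98 (SE 0.18, adjusted p = 0.00208), on the other side of the fold threshold, and the organ difference of the 12 hpt responses was 0.05 (95% interval -0.52 to 0.63, adjusted p = 0.937). No member was called for that difference, with 0.405% of tested genes called higher and 1.39% lower. Both 12 hpt values lay near the fold threshold, and leaving out 1 library changed their calls. The AO value was called without AO untreated replicate 2 or AO 24 hpt replicate 1 (range over all left-out libraries -1.04 to -0.91). The NM value was not called without NM untreated replicate 1 or 2 or NM 12 hpt replicate 1 (-1.15 to -0.92).

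At 24 hpt ATOH1 fell in both organs. In AO it fell by 1.85 on the log2 scale (3.61-fold lower, SE 0.19, adjusted p = 3.81e-05), and its decrease in NM was also called (-1.55, 2.92-fold lower, SE 0.19, adjusted p = 6.05e-05). It was among the 3.47% of tested genes called lower in AO and the 5.01% in NM. The organ difference in this response was -0.30 (95% interval -0.91 to 0.30, adjusted p = 0.468). In NM the summed liver markers fell too, from 686 to 737 CPM untreated to 25.8 to 28.3 at 24 hpt, with 15 of 18 tested liver contigs called lower. In AO the liver markers were at 34.3 to 37.4 CPM untreated and 27.2 to 29.7 at 24 hpt. Muscle markers went from 453 to 465 CPM to 14837 to 15055 in AO, and from 241 to 249 to 548 to 560 in NM. The part of these tissues in the ATOH1 decreases was not tested. From 12 to 24 hpt the ATOH1 log2 fold change was -0.88 in AO (adjusted p = 0.0185) and -0.52 in NM (adjusted p = 0.0597), and neither was called. None of the 4 members was called between these times, against 1.64% of tested genes higher and 1.16% lower in AO, and 9.67% and 5.59% in NM.

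POU4F3 fell in AO by 24 hpt, as ATOH1 did, and was called at neither time in NM. In AO it had 10.8 and 9.97 CPM untreated, 5.47 and 6.16 at 12 hpt and 2.69 and 3.62 at 24 hpt, with no overlap between times. In NM it had 9.36 and 8.21 CPM untreated, 5.82 and 6.43 at 12 hpt and 6.46 and 6.23 at 24 hpt. The treated NM libraries all lay below the untreated ones, and those of 12 and 24 hpt overlapped. At 24 hpt POU4F3 in AO fell by 1.71 on the log2 scale (3.27-fold lower, SE 0.16, adjusted p = 1.66e-05), whereas its log2 fold change in NM was -0.48 (SE 0.15, adjusted p = 0.0245) and was not called. At 12 hpt the values were -0.83 in AO (adjusted p = 0.00167) and -0.51 in NM (adjusted p = 0.0288), both short of a call, and the organ difference was -0.31 (adjusted p = 0.455). From 12 to 24 hpt POU4F3 had a log2 fold change of -0.88 in AO (adjusted p = 0.00692) and 0.03 in NM (95% interval -0.32 to 0.39, adjusted p = 0.931).

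The 24 hpt response of POU4F3 differed between the organs. The AO response minus the NM response was -1.23 on the log2 scale (95% interval -1.73 to -0.74, adjusted p = 0.00343), and POU4F3 was the only 1 of the 4 members called for this difference, which was called lower for 5.61% of tested genes and higher for 2.07%. The size held without any 1 library (-1.46 to -1.08), but the call did not: without AO untreated replicate 1, AO 24 hpt replicate 1, NM untreated replicate 2 or either NM 24 hpt replicate the adjusted p rose to at most 0.0152. It was 0.015 in a fit of only the 4 groups (-1.23) and 0.0454 by DESeq2's Wald test (-1.24). The NM libraries at 24 hpt were also those with 3354 to 3651 CPM of lens markers and 2039 to 2069 CPM of neuron markers, and the part of those tissues in the POU4F3 level was not tested.

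**Figure D2:**
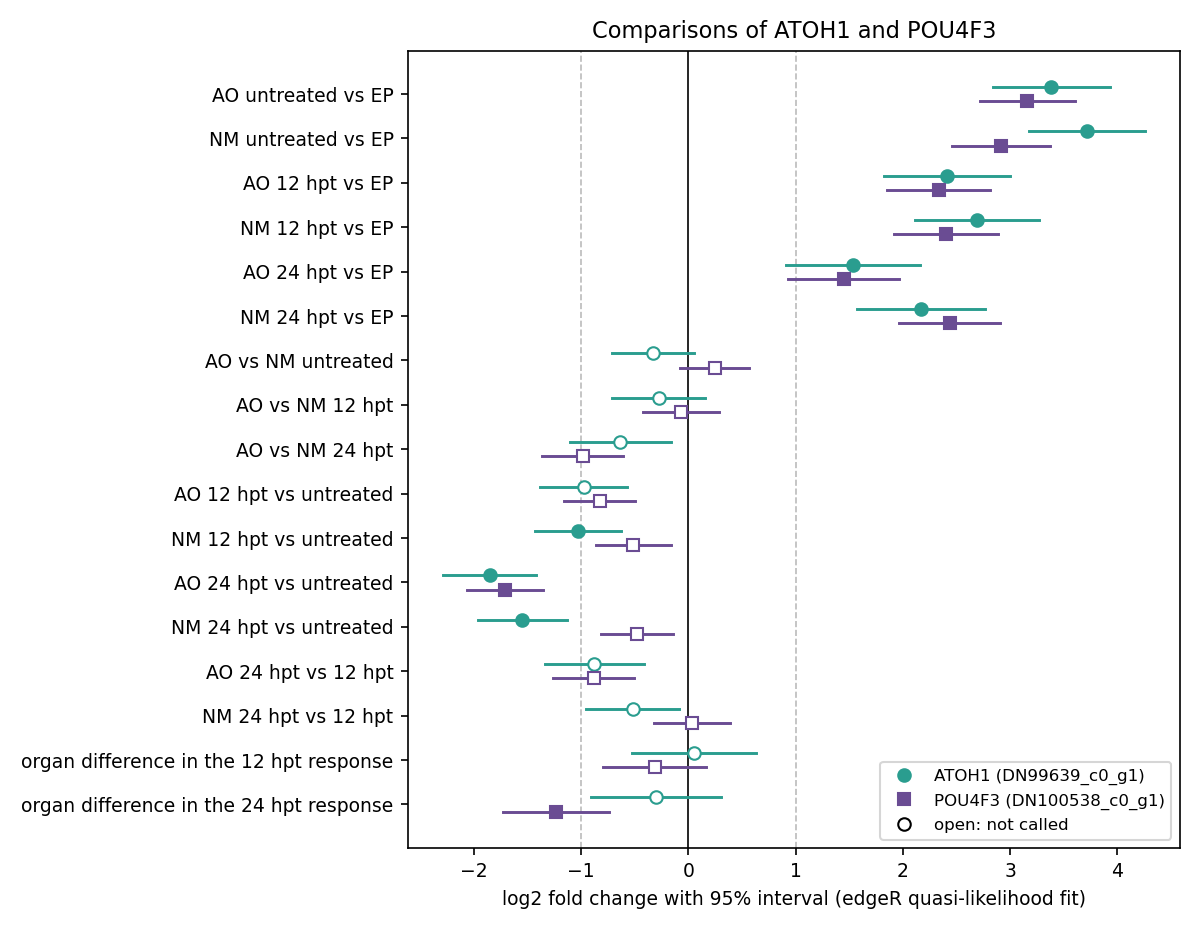
Log2 fold change of ATOH1 DN99639_c0_g1 (circles) and POU4F3 (squares) in each of the 17 comparisons, with 95% intervals from edgeR's quasi-likelihood fit. Filled symbols passed an absolute log2 fold change above 1 (dashed lines) and an FDR under 0.01. All 6 comparisons with EP were called for both genes, and the organ difference at 24 hpt only for POU4F3 (-1.23).

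Both factors stayed above untreated EP after neomycin. At 12 hpt ATOH1 exceeded EP by 2.41 on the log2 scale in AO (adjusted p = 4.34e-05) and 2.69 in NM (adjusted p = 4.05e-05), and POU4F3 by 2.33 (adjusted p = 1.32e-05) and 2.40 (adjusted p = 2.56e-05), where 12.5% of tested genes were called higher and 5.81% lower in AO, and 7.16% and 3.29% in NM. At 24 hpt ATOH1 exceeded EP by 1.53 in AO (adjusted p = 0.00147) and 2.17 in NM (adjusted p = 6.55e-05), and POU4F3 by 1.45 (adjusted p = 0.000607) and 2.44 (adjusted p = 5.11e-06), where 12.8% of tested genes were called higher and 4.41% lower in AO, and 15.0% and 9.94% in NM. The excess in AO at 24 hpt is the least firm of these. It kept its size but lost the call in a fit of only AO at 24 hpt and EP (ATOH1 1.54, adjusted p = 0.028; POU4F3 1.45, adjusted p = 0.02), and the ATOH1 call was lost without EP replicate 2 or AO 24 hpt replicate 1 (range 1.16 to 2.01). The POU4F3 call was lost without EP replicate 1 or AO 24 hpt replicate 2 (range 1.23 to 1.66) and by DESeq2's Wald test (1.44, adjusted p = 0.0102).

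Ordered by mean level, ATOH1 ran from untreated NM (28.8 ± 0.506 CPM, SD, n = 2) through untreated AO (22.9 ± 1.44), NM at 12 hpt (14.1 ± 1.62), AO at 12 hpt (11.6 ± 0.497), NM at 24 hpt (9.81 ± 1.5) and AO at 24 hpt (6.41 ± 1.76) to EP (2.21 ± 0.828). No 2 neighbours in that order overlapped, but only the last step, from AO at 24 hpt to EP, was called. POU4F3 ran from untreated AO (10.4 ± 0.617 CPM) and untreated NM (8.78 ± 0.812) through NM at 24 hpt (6.35 ± 0.164), NM at 12 hpt (6.12 ± 0.430) and AO at 12 hpt (5.81 ± 0.491) to AO at 24 hpt (3.15 ± 0.662) and EP (1.15 ± 0.231). The 3 groups in the middle of the POU4F3 order overlapped, and again only the last step was called. Sorting groups by mean favours separation, and the share of all tested genes that separate in this way was not counted. Non-overlap between groups of 2 libraries is thus a description only, wherever it is given here.

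The ratio of POU4F3 to ATOH1 counts within a library needs no scaling, and contig length cancels when libraries are compared. With 0.5 counts added to each gene, POU4F3 had 45.5 and 45.8 counts for every 100 of ATOH1 in untreated AO, 48.7 and 51.6 at 12 hpt, and 35.6 and 70.5 at 24 hpt. In NM the ratio was 32.3 and 29.0 untreated, 45.3 and 42.4 at 12 hpt and 74.1 and 57.6 at 24 hpt, so the times did not overlap in NM, while the AO libraries at 24 hpt spanned all earlier AO values. The EP ratio, from few counts, was 36.8 and 81.4. Over both organs the log2 ratio was 0.33 higher at 12 hpt than untreated (exact two-sided permutation test within organ, p = 0.0556, adjusted over 3 comparisons 0.167), which is the smallest p that 36 arrangements allow, and 0.61 higher at 24 hpt (p = 0.167 by the same exact test, adjusted 0.25). With the sum of the 3 ATOH1 contigs in place of DN99639_c0_g1, the value at 24 hpt was 0.34 (p = 0.222, exact permutation test). NM minus AO within times was -0.13 (exact two-sided permutation test, p = 0.593). With so few arrangements, neither comparison of times could have reached a p under 0.05.

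Set against CPV3, another hair cell transcript, in the same library, both factors varied less among the organ groups than their CPM did. Other hair cell contigs fell, rose or were not called at 24 hpt, as given below, so the ratios depend on the gene chosen. CPV3 (TRINITY_DN97159_c2_g2), the parvalbumin-3 calcium buffer, was matched by its protein name, and these ratios were chosen after the values had been seen and were not tested. ATOH1 had 13.9 to 15.4 counts per 1000 CPV3 counts in untreated AO, 14.8 to 15.0 at 12 hpt and 10.6 to 17.1 at 24 hpt. In NM it had 15.8 to 16.7 untreated, 14.8 to 16.8 at 12 hpt and 8.58 to 10.4 at 24 hpt. The NM libraries at 24 hpt were thus the lowest of the 12 organ libraries. At 12 hpt the AO libraries lay within the range of the NM ones, while both untreated NM libraries lay above both untreated AO libraries. POU4F3 had 6.32 to 6.98 counts per 1000 CPV3 counts in untreated AO, 7.19 to 7.70 at 12 hpt and 5.99 to 7.47 at 24 hpt, and in NM 4.56 to 5.35, 6.66 to 7.11 and 5.95 to 6.34. Untreated NM was lowest in that ratio. EP had more of both factors per CPV3 count than any organ library, with 27.9 to 52.3 for ATOH1 and 18.4 to 22.5 for POU4F3. Per 1000 counts of the 6 contigs of OTOF, which encodes the calcium sensor of hair cell synapses, ATOH1 was at 193 to 207 in untreated NM, 115 to 133 at 12 hpt and 67.5 to 79.4 at 24 hpt, whereas the AO values of 72.8 to 111 overlapped between all 3 times. POU4F3 per 1000 OTOF counts was at 59.7 to 61.8 in untreated NM, 51.7 to 56.0 at 12 hpt and 45.6 to 49.9 at 24 hpt. In AO it was at 42.4 to 43.0, 45.5 to 51.5 and 39.1 to 51.2.

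**Figure D3:**
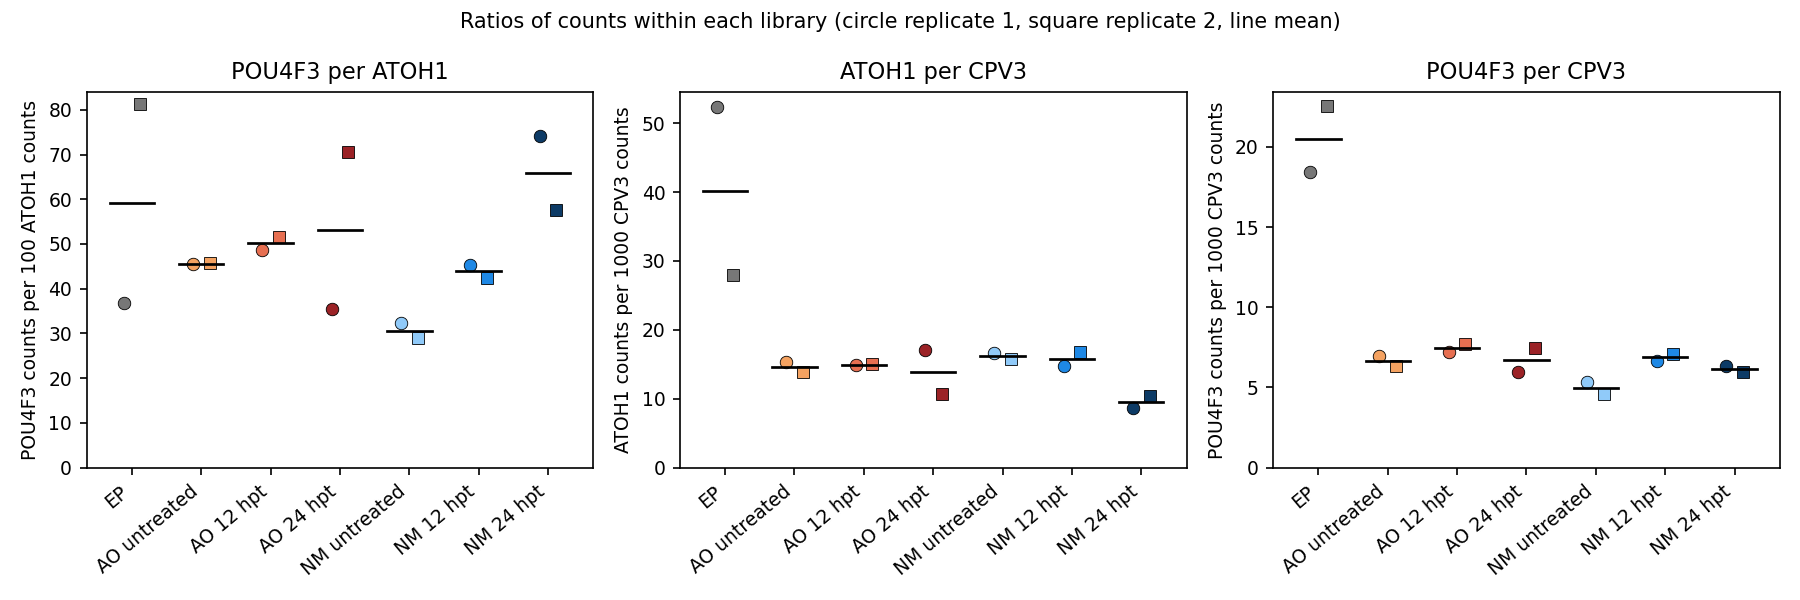
Ratios of expected counts within each library on linear axes that start at 0: POU4F3 per 100 ATOH1 counts (left, with 0.5 counts added to each gene), ATOH1 per 1000 CPV3 counts (middle) and POU4F3 per 1000 CPV3 counts (right). Circles are replicate 1, squares replicate 2 and lines the arithmetic mean. The left ratio was 29.0 to 32.3 in untreated NM and 57.6 to 74.1 in NM at 24 hpt, and ATOH1 per CPV3 was lowest in NM at 24 hpt (8.58 to 10.4).

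The other 2 ATOH1 contigs, both annotated as protein atonal-like 1, were near the limit of what this depth can compare. Each passed the filter on low counts through 2 libraries only, so their calls carry no support of their own. For DN87586_c2_g1 these were replicate 2 of AO at 12 hpt and of AO at 24 hpt. For DN80911_c0_g1 they were replicate 2 of AO and of NM at 24 hpt, the time at which it was high. DN87586_c2_g1 had 0.169 to 0.666 CPM in EP and 0.631 to 1.33 in the organ libraries, and was called in 0 of the 17 comparisons by edgeR (unadjusted p under 0.05 in 1) and in 0 of the 14 for which DESeq2 gave an adjusted p, with wide intervals such as -1.57 to 0.70 for NM at 24 hpt against untreated. At 24 hpt, where the mean of DN99639_c0_g1 was lowest within each organ, that of DN80911_c0_g1 was highest. It had 0.301 and 0.243 CPM in untreated AO, 0.288 and 0.254 at 12 hpt, and 0.928 and 1.43 at 24 hpt. In NM it had 0.425 and 0.165 CPM untreated, 0.544 and 0.518 at 12 hpt and 0.966 and 1.00 at 24 hpt, and the EP libraries held 0.829 and 0.199. The 24 hpt libraries of both organs lay above all others, with 7.98 to 14.3 counts each. Against untreated, AO at 24 hpt had a log2 fold change of 2.23 (SE 0.51, adjusted p = 0.00533, called higher as were 12.6% of tested genes) and NM one of 1.64 (SE 0.54, adjusted p = 0.0281, not called). The AO call was lost in 10 of 14 fits without 1 library and by DESeq2's Wald test (adjusted p = 0.0847). With few counts on the 2 lesser contigs, DN99639_c0_g1 held 95.1% to 95.9% of the ATOH1 counts in the untreated organs and 65.1% to 86.9% at 24 hpt.

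Among the relatives of the members, 1 contig had a pattern close to that of POU4F3 and the other POU4 contigs did not. The contig TRINITY_DN106769_c1_g2, annotated as BRN3 (brain-specific homeobox/POU domain protein 3), had 1.14 and 1.68 CPM in EP, 14.3 and 17.9 in untreated AO and 13.1 and 15.7 in untreated NM. At 12 hpt it had 8.39 and 10.1 CPM in AO and 9.71 and 10.3 in NM, and at 24 hpt 4.81 and 4.89 in AO and 8.04 and 9.28 in NM. Its groups ranked as those of POU4F3 did at the ends, highest in untreated AO and lowest in EP, with AO at 24 hpt the lowest organ group. It exceeded EP by 3.49 in AO and 3.33 in NM on the log2 scale, fell by 1.73 in AO at 24 hpt (adjusted p = 2.46e-05) and had -0.74 in NM (adjusted p = 0.00349, not called). Unlike that of POU4F3, its organ difference in the 24 hpt response was not called (-0.98, 95% interval -1.51 to -0.45, adjusted p = 0.015, quasi-likelihood test). With 0.5 counts added to each gene, its count was 1.15 to 1.91 times that of POU4F3 in every one of the 14 libraries. Reads that match both contigs would have been shared between them in counting, so the 2 patterns are not known to be independent.

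The remaining 4 POU4 contigs had their highest levels after neomycin. Each of them passed the filter on low counts only with the help of treated libraries, which favours contigs that are high there, so their values are a description without support of their own. POU4F1 (DN115976_c1_g1), a factor of sensory neurons in the mouse, had 0.780 and 0.806 CPM in untreated AO, 5.80 and 5.43 at 12 hpt and 4.82 and 3.90 at 24 hpt, and rose by 2.82 and 2.46 on the log2 scale at the later times. In NM it went from 0.726 and 0.562 CPM to 3.11 and 3.84 and to 4.94 and 2.59, and rose by 2.47 and 2.58. A second BRN3 contig (DN98261_c4_g2) and the POU4F2 contig DN98574_c2_g1, whose mouse counterpart marks retinal ganglion cells, also rose in both organs at both times, by 1.73 to 4.27. POU4F2 DN106578_c3_g3 rose in NM, from 0 and 0.209 CPM untreated, by 4.93 and 5.27, values that rest on almost no untreated counts, and had 1.92 and 1.94 in AO, where it was not called. The proneural gene NEUROG2 rose at every time in both organs (1.20 to 3.98) and NEUROG1 in NM (3.65 and 3.93). The NM values of NEUROG1, NEUROG2 and POU4F2 DN98574_c2_g1 also rest on few untreated counts (0.6 to 1.2, 0.88 to 3.52 and 0.88 to 1.81 per library). ATOH8 was called at no time against untreated. In all, 4 of the 8 tested relatives were called higher in AO at 12 hpt and 6 in NM, with 9.84% and 11.1% of all tested genes as background, and 4 and 6 at 24 hpt, with 12.6% and 16.1%. These counts include the 4 contigs that needed treated libraries to pass the filter. Over the same groups the summed neuron markers went from 475 to 518 CPM in untreated AO to 1174 to 1200 at 12 hpt and 1592 to 1636 at 24 hpt, and from 260 to 282 in untreated NM to 590.1 to 599.7 and 2039 to 2069. The part of neurons in the rise of these contigs was not tested.

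**Figure D4:**
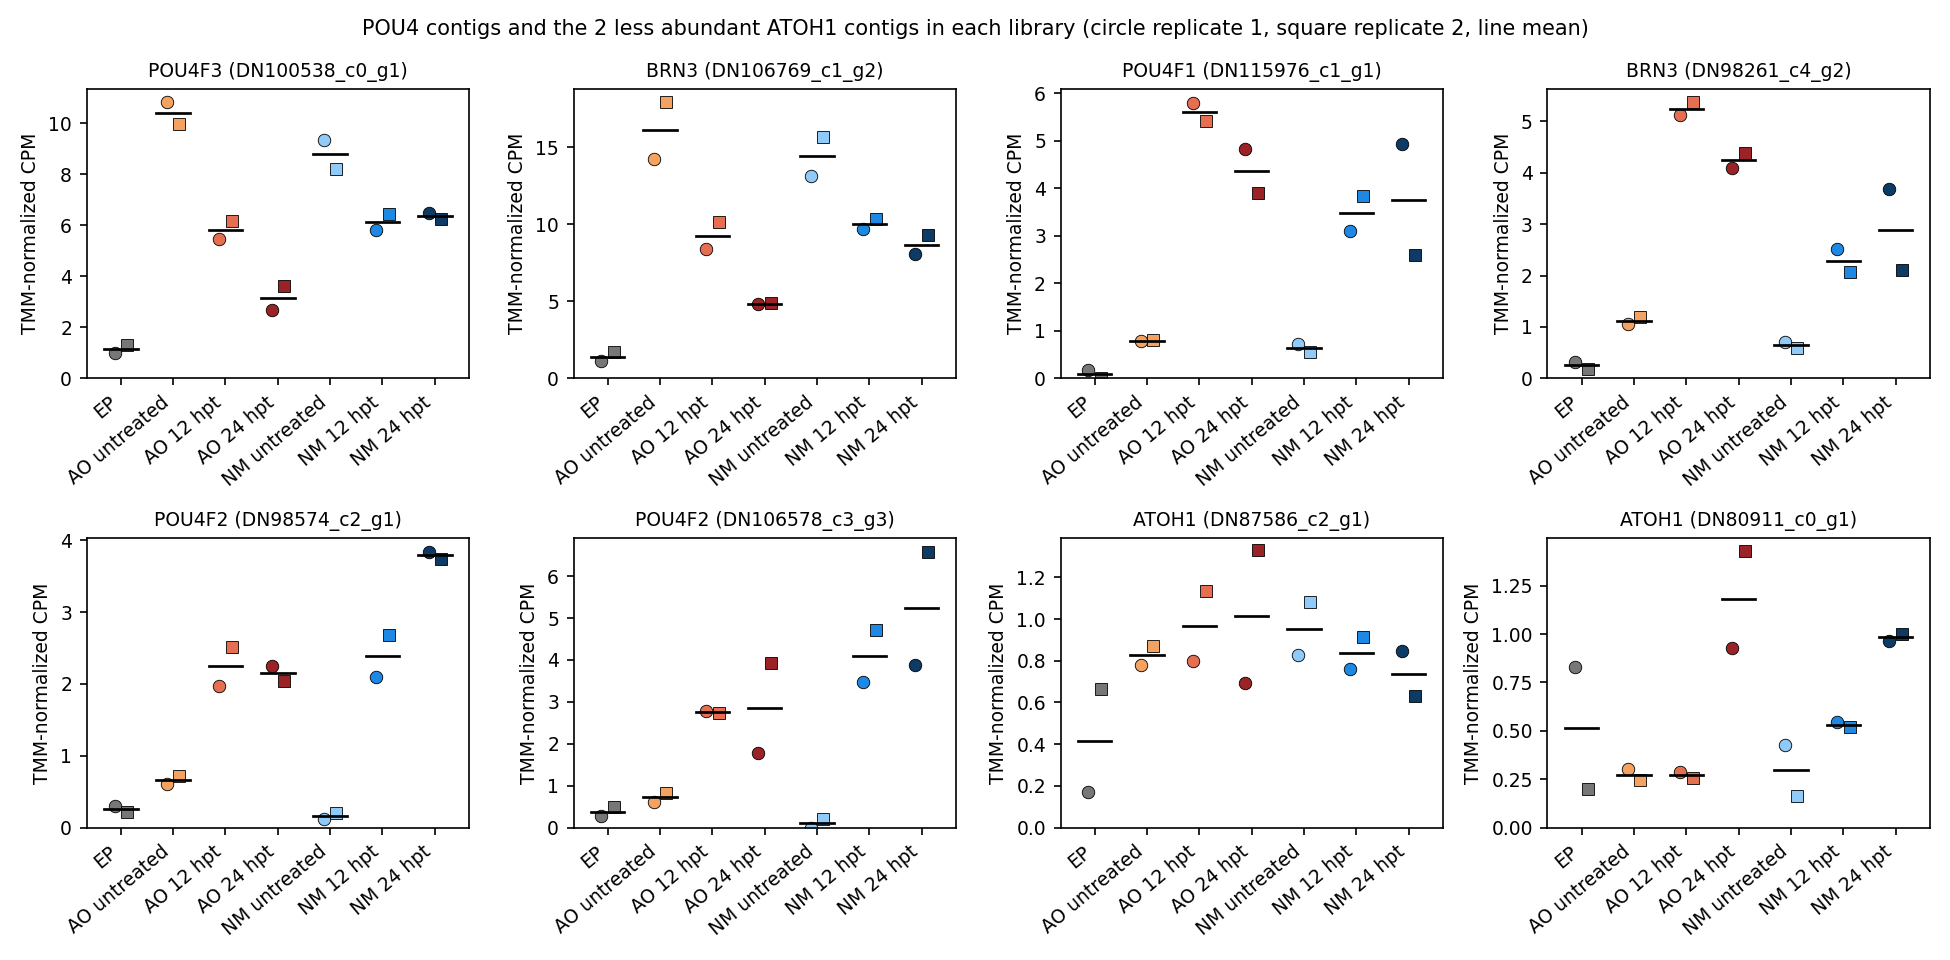
TMM-normalized CPM in each library of POU4F3, of 5 further POU4 contigs and of the 2 less abundant ATOH1 contigs, each panel on its own linear axis from 0, with circles for replicate 1, squares for replicate 2 and lines for the mean. BRN3 DN106769_c1_g2 was highest in the untreated organs (13.1 to 17.9 CPM), as POU4F3 was, whereas POU4F1 was at 0.562 to 0.806 CPM in the untreated organs and at 2.59 to 5.80 after neomycin.

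The dimer partners of ATOH1 were rarely called, and with only 7 contigs that is near the shares over all tested genes. All 7 contigs of the E proteins TCF3, TCF4 and TCF12 were tested, and 0 were called by edgeR or by DESeq2 between an untreated organ and EP or at either time after neomycin against the untreated organ. Among all tested genes 7.46% were higher and 6.81% lower than EP in untreated AO, and 4.06% and 9.19% in untreated NM. Against the untreated organ, 9.84% were higher and 2.21% lower in AO at 12 hpt, and 11.1% and 1.32% in NM. The shares at 24 hpt were 12.6% and 3.47% in AO, and 16.1% and 5.01% in NM. Against EP, TCF12 DN89112_c4_g4 was lower in AO at 12 hpt (-1.22, adjusted p = 0.00032) and in NM at 12 hpt (-1.02, adjusted p = 0.00178), and no other E protein contig was called in the 6 comparisons with EP. An unadjusted p under 0.05 (quasi-likelihood test) was found against EP for 2 of the 7 contigs in untreated AO and 4 in untreated NM. Against the untreated organ it was found at 12 hpt for 5 in AO, where 0 of the 7 rose, and 2 in NM. The medians at 12 hpt were -0.33 in AO and -0.07 in NM, beside 0.04 and 0.06 over all tested genes. At 24 hpt 3 of the 7 in AO and 4 in NM had an unadjusted p under 0.05. Their log2 fold changes at 24 hpt ran from -0.50 to 0.09 in AO and -0.40 to 0.00 in NM. At that time AO had a median over these contigs of -0.19 and NM one of -0.33, beside -0.01 and -0.03 over all tested genes. Of the inhibitors, ID4 was higher in untreated AO (1.56 on the log2 scale) and NM (1.06) than in EP and rose in NM at 24 hpt by 1.44, with 0.63 in AO. ID1 and ID2 were called in none of these comparisons, and had -0.27 and -0.56 in AO and -0.91 and -0.92 in NM at 24 hpt.

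Contigs of Notch repressors were called in both directions at 24 hpt, and few of the receptors and ligands were called. HEY1 and HEY2, which repress Atoh1 in the mouse cochlea, exceeded EP in untreated AO (by 1.73 and 1.81) and in untreated NM (by 1.47 and 1.59), as ATOH1 did. HEY1 fell at 24 hpt, by 1.46 in AO and 1.11 in NM, and HEY2 had -0.93 and -0.50 and was not called. HES5 rose by 1.37 in AO and 2.18 in NM, and HES6, a HES member that counters HES1, rose in NM by 1.45 with 0.58 in AO. In all, 1 of 8 HES and HEY contigs was called higher and 1 lower in AO at 24 hpt, and 3 higher and 1 lower in NM, with medians of -0.67 and 0.42 beside -0.01 and -0.03 over all tested genes. Of all tested genes 12.6% were higher and 3.47% lower in AO, and 16.1% and 5.01% in NM, and the counts of this list rest on 1 to 3 contigs each. Of the 8 contigs, 1 (HELT) passed the filter on low counts only with the help of treated libraries. Of 22 tested contigs of Notch receptors, ligands and fringe enzymes, 0 were called higher and 1 lower in AO (NOTCH1 DN119757_c3_g2, which fell by 1.11) and 1 higher and 1 lower in NM, the ligand genes DLD DN106623_c0_g1 (1.52) and JAG1B DN70292_c0_g1 (-1.44), with medians of -0.42 and -0.10. The share of these contigs called lower was near that of all tested genes, and fewer were called higher than among all tested genes.

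Factors that act before or together with ATOH1 were more often called higher than lower in the organs, and more often lower than higher at 24 hpt. Of 19 tested contigs, 8 were higher than EP in untreated AO and 5 in untreated NM, and 1 (TBX1) was lower in each. Over all tested genes 7.46% were higher and 6.81% lower than EP in untreated AO, and 4.06% and 9.19% in untreated NM. EYA1, a transcriptional coactivator that acts upstream of Atoh1 in the mouse ear, had 2 contigs that exceeded EP by 1.89 and 1.74 in AO and by 1.42 and 1.52 in NM. At 24 hpt 8 contigs fell in AO and 2 rose, and 4 fell in NM and 1 rose, with medians of -0.61 and -0.47 beside -0.01 and -0.03 over all tested genes, of which 3.47% fell and 12.6% rose in AO, and 5.01% fell and 16.1% rose in NM. The EYA1 contigs fell by 1.95 and 1.64 in AO with -0.97 and -0.91 in NM. SOX2, an HMG box factor needed for the sensory epithelium of the mouse ear, was called in none of these comparisons, with 0.90 in AO and 0.65 in NM against EP and -0.43 and 0.07 at 24 hpt. The contigs that rose were PAX2A in both organs (1.81 and 3.63) and PAX8 in AO (2.87), the latter a contig that passed the filter on low counts only through the group in which it was high. PAX2A reached the CPM of the filter in only 2 untreated libraries and in 7 treated ones, so the sizes of its rises are uncertain.

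Among factors that follow ATOH1 or act with POU4F3, most contigs were not called at 24 hpt (14 of 22 in AO and 13 of 22 in NM), and those that were called moved both ways in AO and rose in NM. GFI1, a zinc finger repressor, had group means of 9.12, 4.50 and 2.20 CPM over the 3 times in AO and of 7.57, 4.65 and 4.37 CPM in NM. It exceeded EP by 2.81 and 2.53 in the untreated organs, fell by 2.02 in AO at 24 hpt with -0.80 in NM, and the organ difference of -1.23 was called as that of POU4F3 was, though not by DESeq2's Wald test (adjusted p = 0.0992) or in a fit of only the 4 groups (adjusted p = 0.0213). The GFI1 value in AO at 12 hpt, -1.01, was called, but not with the replicate number as a block (-1.0). LHX3 exceeded EP by 4.75 in AO and 4.02 in NM, and fell by 2.47 in AO at 24 hpt with -0.89 in NM. BARHL1, which maintains hair cells in the mouse, and BARHL2 instead rose at 24 hpt, by 1.80 and 1.62 in AO and by 3.73 and 5.48 in NM. Each of these 2 contigs reached the CPM of the filter in only 2 untreated libraries and in 8 treated ones. Part of the untreated levels was thus low, and the sizes of these rises are uncertain. NEUROD1, a bHLH factor of inner ear neurons in the mouse, rose by 2.12 and 3.74, and INSM1B DN104138_c2_g2 rose in NM by 1.91. Of 22 tested contigs, 5 were called higher and 3 lower in AO at 24 hpt, and 9 higher and 0 lower in NM, and 7 were called lower and 0 higher for the organ difference. Over all tested genes 12.6% were higher and 3.47% lower in AO, 16.1% and 5.01% in NM, and 2.07% and 5.61% for the difference. Of the 22 contigs, 2 (both of RASD2) passed the filter on low counts only with the help of treated libraries, which favours contigs that are high there. The medians were 0.14 in AO, 0.56 in NM and -0.84 for the difference, beside -0.01, -0.03 and -0.08 over all tested genes. This list holds genes that neurons also express, and summed neuron markers were highest in NM at 24 hpt (2039 to 2069 CPM). The part of neurons in the changes of this list was not tested.

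**Figure D5:**
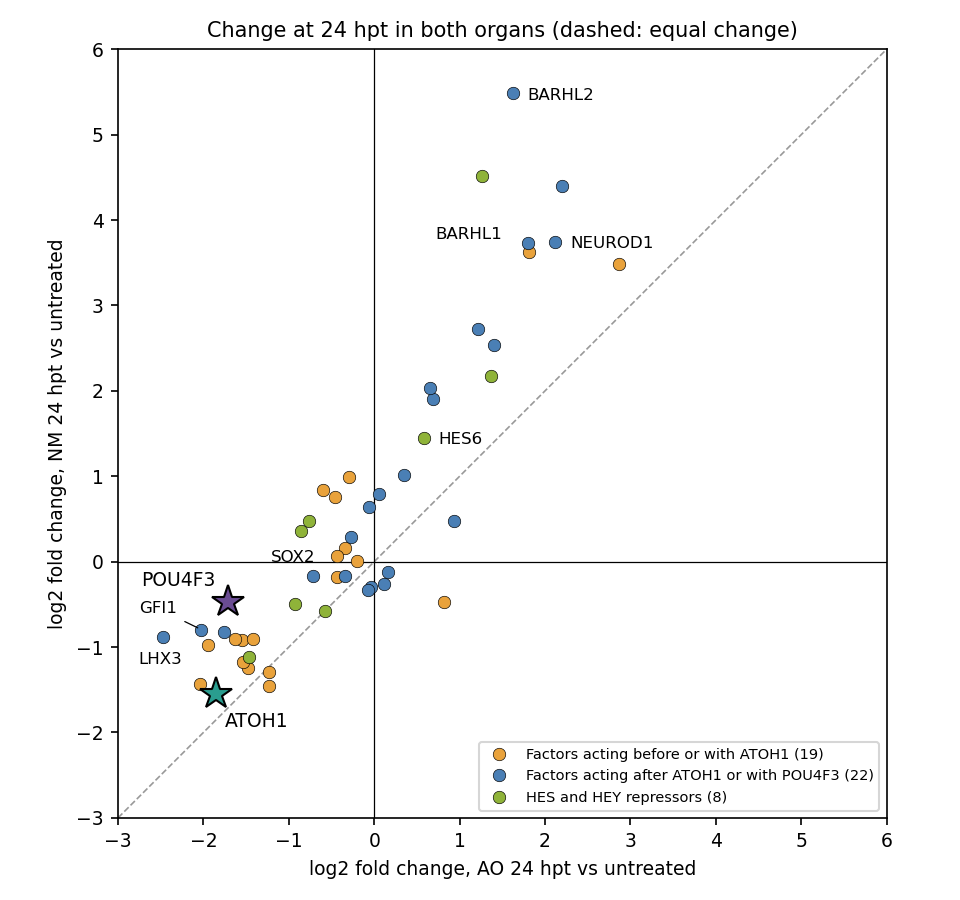
Log2 fold change at 24 hpt against untreated in AO (horizontal axis) and NM (vertical axis) for the tested contigs of 3 lists of regulators and, as stars, for ATOH1 DN99639_c0_g1 (-1.85 and -1.55) and POU4F3 (-1.71 and -0.48). The dashed line marks equal change in both organs. POU4F3, GFI1 and LHX3 lay to the upper left of the line at negative AO values, and BARHL1, BARHL2 and NEUROD1 at positive values in both organs.

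Hair cell genes that are no regulators were more often called higher than lower against EP in the untreated organs, and were called both ways at 24 hpt. Of 74 tested contigs, 34 were higher and 5 lower than EP in untreated AO, and 21 higher and 7 lower in untreated NM, with medians of 1.72 and 0.55 beside 0.09 and -0.00 over all tested genes. Of all tested genes 7.46% were higher and 6.81% lower in AO, and 4.06% and 9.19% in NM. XIRP2, an actin-binding protein of hair bundles and of muscle, accounted for 3 of the contigs that were lower in AO. At 24 hpt 13 hair cell contigs were called higher and 17 lower in AO, and 22 higher and 2 lower in NM, with medians of 0.00 and 0.54. The shares over all tested genes were 12.6% higher and 3.47% lower in AO, and 16.1% and 5.01% in NM. Of the 74 contigs, 13 passed the filter on low counts only with the help of treated libraries. CPV3 fell by 1.75 in AO and had -0.78 in NM, where it was not called. OTOF DN119677_c4_g1 fell by 2.11 in AO and had -0.22 in NM, and its organ difference of -1.89 was called, as for 12 other hair cell contigs, all lower, a count of 13 that was 7 by DESeq2's Wald test and 7 in a fit of only the 4 groups. For that difference 5.61% of all tested genes were called lower and 2.07% higher. Among those that rose in NM was ATP2B2 DN94295_c0_g2 (7.40), a calcium pump that neurons also express, from a mean of 0.263 CPM untreated to 44.0, while CDH23 DN65193_c0_g1, of a tip link cadherin, had 0 counts in untreated NM and a mean of 4.72 CPM at 24 hpt. MYO7A DN113594_c0_g1, a myosin of hair bundles, was called in none of these comparisons and was at a mean of 0.829 to 1.57 CPM in all groups.

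Likeness of pattern was measured as the root mean square difference between log2 CPM profiles over the 14 libraries, each centred on its own mean, where 0 is the same pattern. The 5 genes most like ATOH1 DN99639_c0_g1 among 21977 were COCH (0.28), a secreted matrix protein of the inner ear, SHISA1 (0.30), which in *Xenopus* restrains Wnt and FGF receptors, the homeobox gene HMX1 (0.30), and 2 contigs of the tight junction gene CLDN3 (0.31 and 0.32). COCH had means of 8.85 CPM in EP, 64.9, 32.6 and 22.5 over the 3 times in AO, and 93.5, 31.0 and 28.2 in NM. The genes most like POU4F3 were OSBPL1A (0.17), an oxysterol-binding protein, FSCN2 (0.18), an actin bundler of stereocilia in the mouse, BRN3 DN106769_c1_g2 (0.21), KRT18 DN111078_c1_g2 (0.23), a keratin of simple epithelia, and DN98205_c3_g1 (0.23), a contig without a name. FSCN2 had means of 10.4, 6.95 and 3.94 CPM over the 3 times in AO, and of 9.28, 6.86 and 7.0 in NM, with 1.06 in EP. ATOH1 and POU4F3 differed from each other by 0.43, which made POU4F3 number 22 in likeness to ATOH1 and ATOH1 number 75 in likeness to POU4F3. The median difference over all genes was 1.19 from ATOH1 and 1.00 from POU4F3, and genes within this set share the libraries and the large contrast between EP and organs.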

How the data were processed

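Per the labels, total RNA was made into TruSeq libraries and base calls came from CASAVA 1.8.2. After trimming by Trimmomatic 0.38, a single Trinity assembly was built from every library, and only contigs that matched Swiss-Prot or a sterlet gene were retained. The authors deposited expected counts per assembled gene from RSEM, whose version is not given in the sources used here. RSEM divides reads that match several contigs between them, and whether strand was used in counting is not given there either. Gene names came from the deposited annotation, which holds 22647 genes.

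Expected counts were rounded to whole numbers and fitted with edgeR 4.0.16 (R 4.3.3, limma 3.58.1) by its quasi-likelihood test, with TMM scaling, filterByExpr (CPM of about 1.13 in 2 libraries) and 1 mean for each of 7 groups over 14 libraries. The test took 21978 genes, and 2 genes of the table had no counts. P-values were adjusted by Benjamini-Hochberg over all tested genes, and the study's thresholds were used. The organ difference is the AO response minus the NM response. The ratios of POU4F3 to ATOH1, as printed and as tested, and those of BRN3 to POU4F3 had 0.5 counts added to each gene. Ratios per CPV3 or OTOF count had none added. CPM for likeness had a prior count of 2. With 2 libraries a side, a permutation test of a single gene cannot go below p = 0.333. The fit was tested on simulated data.

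Libraries with the same replicate number in the labels deviated together from their group means (correlation 0.125 to 0.232, over 0.1 in 21 of 21 pairs of groups), so the number was also fitted as a block. Alternatives were edgeR with RLE scaling in place of TMM, the Wald test of DESeq2 1.42.0, other filters and an exact test. Further ones were a fit of only the groups compared, FDR under 0.05, and each library left out.

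The members and gene lists were chosen with earlier results of these data known. Named were the members, their POU4 and atonal relatives, the 5 contigs most like each of ATOH1 DN99639_c0_g1 and POU4F3, a set of defining genes per list, and up to 4 further called contigs of a list with the largest change in the comparison described. Values of 1 gene of the list of factors acting before ATOH1 are not reported here.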

Additional observations from a re-analysis of the deposited data

Results flagged for a closer look

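The 24 hpt response of POU4F3 DN100538_c0_g1 differed between AO and NM by a test of the difference itself, with an AO minus NM log2 value of -1.23 (adjusted p = 0.00343, quasi-likelihood test of edgeR, Benjamini-Hochberg adjusted). Both AO libraries at 24 hpt (2.69 and 3.62 CPM) lay below both untreated AO libraries (10.8 and 9.97), and both NM libraries at 24 hpt (6.46 and 6.23) lay below both untreated NM libraries (9.36 and 8.21) by a smaller amount. NM at 24 hpt was the group with the highest summed lens and neuron markers, and their part in the difference was not tested.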

How the results depend on the processing

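Of 36 member values, 36 kept their direction and call with the replicate block, with no filter and with the filter at CPM above 1. With the replicate block the ATOH1 decrease of 24 hpt was -1.85 (AO) and -1.54 (NM), and the POU4F3 organ difference was -1.23. A fit of only the groups compared ended the calls of ATOH1 (1.54) and POU4F3 (1.45) for AO at 24 hpt against EP and of the POU4F3 organ difference (-1.23), and made one of ATOH1 in AO at 12 hpt (-1.01). DESeq2's Wald test ended those of POU4F3 for AO at 24 hpt against EP (1.44), of its organ difference (-1.24) and of DN80911_c0_g1 in AO at 24 hpt (2.33). RLE scaling in place of TMM in edgeR made a call of POU4F3 between AO and NM at 24 hpt (-1.03), and FDR under 0.05 one of DN80911_c0_g1 in NM at 24 hpt (1.64). Of the 5 genes most like ATOH1, 2 were shared with group means and 3 with a prior count of 0.5. The cause of these changes was not tested.

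With each library left out in turn, calls changed for ATOH1 in AO at 24 hpt against EP (1.16 to 2.01), in AO (-1.04 to -0.91) and NM (-1.15 to -0.92) at 12 hpt against untreated, for POU4F3 in AO at 24 hpt against EP (1.23 to 1.66) and against NM (-1.21 to -0.84), for its 24 hpt organ difference (-1.46 to -1.08) and for DN80911_c0_g1 in AO at 24 hpt (1.94 to 2.50). Directions turned for 3 values near 0 that were not called, the ATOH1 organ difference at 12 hpt (-0.052 to 0.18), POU4F3 between AO and NM at 12 hpt (-0.16 to 0.014) and POU4F3 in NM from 12 to 24 hpt (-0.036 to 0.12). Counts over all genes moved by over 1.5 times in 14 of 34 cases in fits of only the groups compared, for example from 1142 to 78 genes higher in untreated AO than NM, and in 1 of 34 with the block. Counts within the gene lists moved so in 22 of 210 cases by DESeq2's Wald test, 30 of 210 in fits of only the groups compared (for example from 34 to 22 hair cell contigs higher in untreated AO than EP) and 168 of 2940 with a library left out. Of 108 calls of the defining genes of the lists and of the relatives, 16 were lost by DESeq2's Wald test and 24 in fits of only the groups compared. Losses came in 94 of 1512 cases with a library left out. The defining genes include some that are no regulators, such as CPV3 and OTOF. Other named contigs, such as those of NEUROD1, HES5 and PAX2A, were not in this count. With the sum of the 3 ATOH1 contigs the ratio at 24 hpt was 0.34. The counts of DN87586_c2_g1 and DN80911_c0_g1 were too low at this depth to compare their levels with any precision.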
